A study of Mus musculus with 28 samples.

Results

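The immunoglobulin loci hold the gene segments from which B-lineage cells assemble antibody genes. In the table of TPM (a transcript level scaled for transcript length and for the total of each library), 395 of 55450 rows carry the symbol of a heavy, kappa or lambda variable (V), diversity (D), joining (J) or constant segment. Described here are the 41 of these rows with a TPM above 0 in at least 3 of 12 libraries. They are 32 of 185 heavy V segments, 6 of 160 kappa V segments and 3 of 8 heavy constant regions, Ighm, Ighd and Ighg2b. The segments were chosen by these TPM values, so that their being detected is not a result, and a segment detected at 1 time point alone had to differ between times. The 13 segments that just met the rule, with 3 libraries above 0, reached at most 1.21 TPM, and the 18 rows that just missed it, with 2 libraries, reached at most 1.87 TPM.

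C10 is a mouse Pre-B cell line derived from HAFTL cells. It carries a C/EBPα-ER transgene, in which C/EBPα is fused to the hormone-binding part of the estrogen receptor and becomes active when β-estradiol is added. RNA was sequenced in 3 replicates at 0h and at 1h, 12h and 48h of treatment with 100 nM β-estradiol, IL-3 and CSF-1, and promoter capture Hi-C was read from 2 replicates merged at each time. Every group, 0h included, carries the transgene, no group without it or with the cytokines alone was analysed here, and all values come from 1 cell line. The treatment cannot be told apart from time in culture.

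Antibody heavy chain genes are made by V(D)J recombination, in which the RAG recombinase joins a V, a D and a J segment upstream of the Ighm constant exons, and light chain genes are made from V and J segments alone. V segments that have not been joined are also transcribed from their own promoters as germline transcripts, and the unjoined heavy locus gives sterile transcripts that hold Ighm exons. Ighm encodes the constant part of the IgM heavy chain, which in Pre-B cells pairs with the surrogate light chain. Short reads counted on whole genes do not separate a joined from a germline V transcript, nor a sterile from a coding Ighm transcript.

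Most V promoters carry an octamer, the site at which the Oct factors Pou2f1 and Pou2f2 and their coactivator Pou2af1 act. The letters ATGCAAAT or, on the other strand, ATTTGCAT were found between 250 bases before and 50 bases after the annotated start in 26 of the 32 heavy V members (81.3%), in 128 of all 185 heavy V rows (69.2%), in 5 of the 6 kappa V members and in 94 of all 160 kappa V rows (58.8%). Among 32851 RefSeq promoters of the same length 570 (1.74%) held them. The 10 windows below belong to the segments that the results turn on, each of 30 bases on the coding strand of GRCm38, with the octamer in capitals. By mean TPM, the first 5 segments were highest at 0h or 1h and the others at 48h.
Ighv1-54, chr12:115194197-115194226, minus strand: tgctcatgaatATGCAAATcacgcaagtct
Ighv1-66, chr12:115593634-115593663, minus strand: tgctcatgaatATGCAAATcacctgggtct
Ighv1-5, chr12:114513853-114513882, minus strand: tgctcatgattATGCAAATtcattgaatct
Ighv14-2, chr12:113994985-113995014, minus strand: gcctcatgagtATGCAAATcatgtgagact
Ighv1-77, chr12:115862389-115862418, minus strand: tgctcatgaatATGCAAATtcactgaatct
Ighv1-64, chr12:115508068-115508097, minus strand: tgctcatgaatATGCAAATcctctgaatct
Ighv1-55, chr12:115208617-115208646, minus strand: tgctcataaatATGCAAATcctgtgaatct
Ighv1-70, chr12:115692411-115692440, minus strand: tgctcatgaatATGCAAATtcactgaatct
Ighv1-52, chr12:115146009-115146038, minus strand: agctcataaatATGCAAATcctgtgaatct
Igkv14-111, chr6:68256302-68256331, plus strand: ggttcccaatgATTTGCATgctctcacttc
Ighv1-70 and Ighv1-77 held the same 30 letters. The highest mean of Ighv1-77 was at 1h and that of Ighv1-70 at 48h, where Ighv1-70 was not called. Whether these letters have a part in the time courses was not tested. The window of Ighv1-55 was shared with Ighv1-53, Ighv1-62 and Ighv1-69, of which Ighv1-69 is no member. Ighv1-62, chosen after its values were seen, had a mean of 0.380 TPM at 0h and 0.123 at 48h, while Ighv1-53 and Ighv1-55 had their highest means at 48h. The highest single library of Ighv1-55 was 0h replicate 1, at 7.32 TPM, and none of these 3 members was called at 48h. No octamer was found in the windows of Ighv14-4, Ighv1-78, Ighv2-6, Ighv1-11, Ighv1-81 and Ighv1-83 or in that of Igkv12-66, which says only that these letters were not there.

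The cells moved from a Pre-B to a macrophage marker pattern. The summed TPM of 7 Pre-B cell markers lay between 180 and 208 at 0h and between 14.2 and 23.2 at 48h, and that of 6 macrophage markers rose from at most 2.07 to between 590 and 731, with Adgre1 at or near 0 throughout (at most 0.29 TPM). The summed TPM of 6 mature B or plasma cell markers was between 2.30 and 11.2, with Cr2 higher than Sdc1 in 2 of the 3 libraries of 0h and Sdc1 the highest at every later time, while Jchain, the joining chain of secreted antibody, stayed at or below 0.07 TPM. The 7 T cell markers summed to at most 0.58 TPM and Cd3e, Cd3g, Trbc1 and Trbc2 were at 0 in every library. From these bulk RNA values, fewer cells making a transcript and less RNA per cell cannot be told apart. On the TPM scale the median of all genes tested was 0.59 higher in log2 at 1h than at 0h, 0.34 higher at 12h and 0.18 lower at 48h. The 2 most abundant genes took 70.3% to 82.9% of TPM. After median-of-ratios scaling between libraries these medians were 0.02, 0.07 and 0.07.

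Ighm fell deeply by 12h and came back in part at 48h. It lies at chr12:113418558-113422730, and its TPM in the 3 replicates was 63.97, 55.28 and 49.13 at 0h, 41.33, 41.98 and 38.49 at 1h, then 3.82, 4.54 and 4.70 at 12h, followed by 10.42, 12.75 and 13.52 at 48h. The libraries of the 4 times did not overlap, and the lowest values were those of 12h, not of 48h. The means were 56.1 ± 7.46, 40.6 ± 1.86, 4.35 ± 0.469 and 12.2 ± 1.61 TPM (SD, n = 3 each). In limma on log2(TPM + 0.1), with Benjamini-Hochberg adjustment over 16415 genes, the log2 change against 0h was -3.66 ± 0.16 (SE, adjusted p = 5.08e-08) at 12h and -2.19 ± 0.16 (adjusted p = 7.14e-07) at 48h. The rise from 12h to 48h, a comparison added after the values were seen, was 1.47 ± 0.16 in log2 (limma, adjusted p = 4.93e-05). At 1h the change of -0.46 missed the threshold (limma, adjusted p = 0.0556). It was 1.05 below the median gene, and with median-of-ratios scaling it was -1.12 and passed (adjusted p = 7.11e-05).

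Ighd, the constant region of IgD that is spliced from the same transcript as Ighm, was much lower. Its TPM was 1.08, 0.76 and 0.69 at 0h, 0.34, 1.08 and 0.31 at 1h, then 0.25, 0 and 0.33 at 12h, followed by 0.07, 0.25 and 0.32 at 48h. The 12h and 48h libraries all lay below the 0h libraries and overlapped each other. In limma the log2 change was -1.91 ± 0.60 at 12h (adjusted p = 0.0330) and -1.67 ± 0.60 at 48h (adjusted p = 0.0423). The call at 12h was lost without any one of the 0h replicates or 12h replicate 2, with a lowest value of -2.31 and a highest of -1.26. The call at 48h was lost without any one of 8 libraries (each 0h replicate, 1h replicates 1 and 3, 12h replicate 1, and 48h replicates 1 and 2), with a range of -1.93 to -1.28. Both calls were also lost with the replicate number as a block (adjusted p = 0.0515 and 0.0637). Ighg2b, the constant region of IgG2b, was detected in 3 libraries only, at 0.35 and 0.30 TPM in 0h replicates 2 and 3 and at 0.05 in 1h replicate 3. It fell short of the mean of 0.1 TPM needed for a test.

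**Figure D1:**
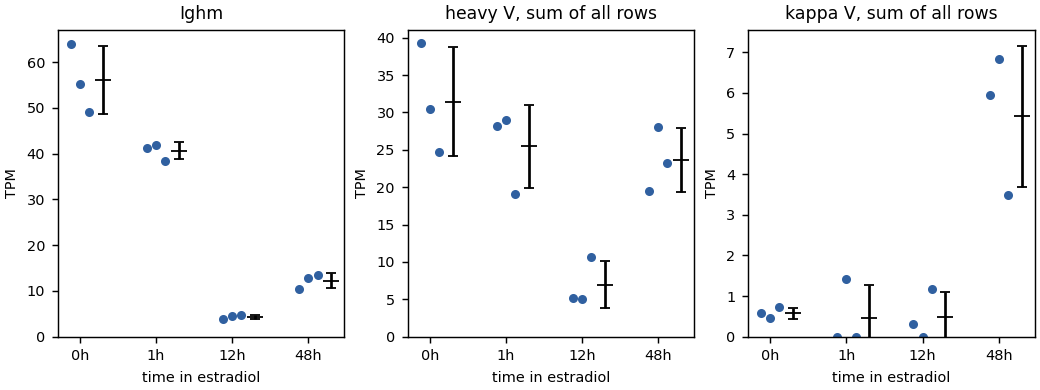
TPM of Ighm, of all 185 heavy V rows summed and of all 160 kappa V rows summed at each time in estradiol. Points are the 3 libraries and the bar with whiskers beside them is the mean ± SD; Ighm and the heavy V sum are lowest at 12h, and the kappa V sum is highest at 48h.

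The heavy V segments together followed another course from Ighm. The summed TPM of the 185 rows was 39.22, 30.44 and 24.66 at 0h, 28.22, 29.02 and 19.09 at 1h, then 5.21, 5.04 and 10.64 at 12h, followed by 19.52, 28.10 and 23.28 at 48h. The 12h libraries lay below all others, and the 48h libraries overlapped those of 0h and 1h. Per TPM of Ighm, the heavy V sum was 0.555 ± 0.0557 at 0h, 0.623 ± 0.110 at 1h, then 1.58 ± 0.606 at 12h, followed by 1.93 ± 0.247 at 48h (SD, n = 3 each). This ratio does not depend on scaling between libraries. The members at 48h stood at 0.789 of their 0h sum on the TPM scale and at 1.06 with median-of-ratios scaling, so that the direction of the difference from 0h in the summed level depends on the scaling.

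**Figure D2:**
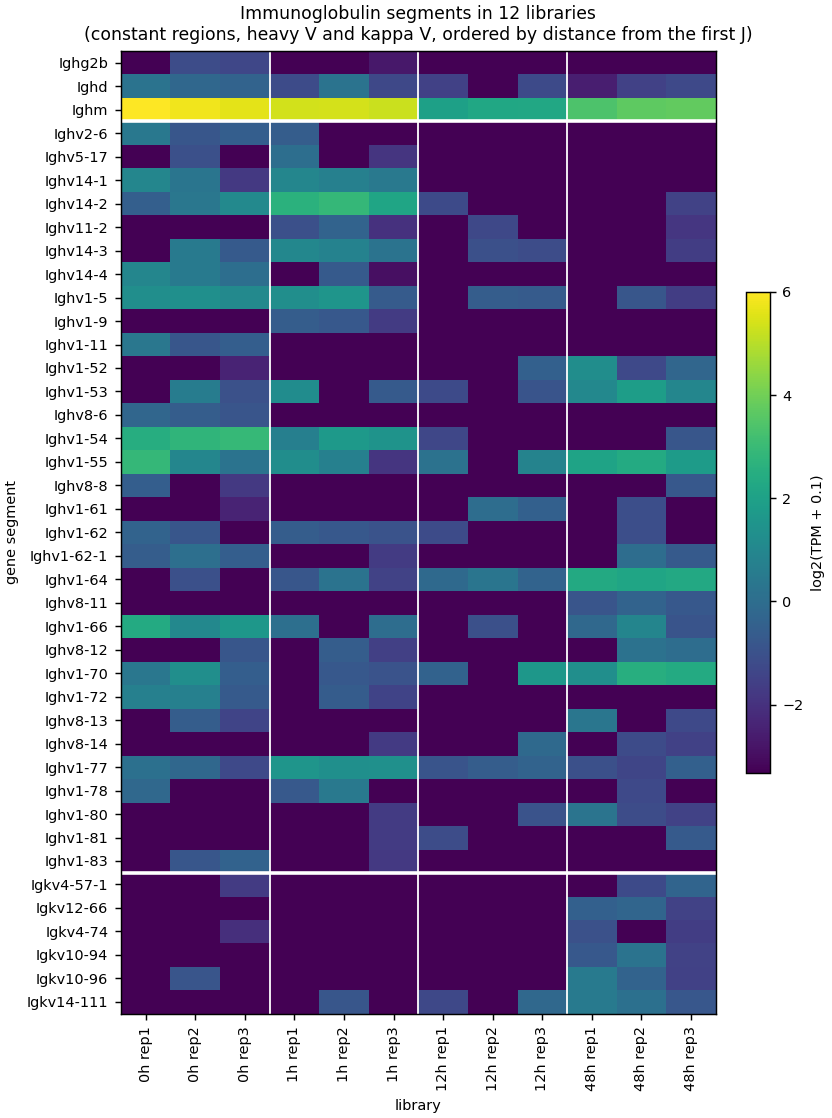
Level of the 41 segments in each of the 12 libraries, as log2(TPM + 0.1), with the constant regions on top, the heavy V segments in the middle and the kappa V segments below, each ordered by distance from the J segments. The heavy V segments nearest to the J segments are at or near 0 at 12h and 48h, and the kappa V rows are nearly empty before 48h.

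The shares of single segments in the heavy V sum shifted between the start and the end. Ighv1-54 (chr12:115193675-115194134), the V segment with the highest mean at 0h, had 5.49, 6.72 and 7.49 TPM at 0h, 1.54, 3.10 and 2.66 at 1h, then 0.30, 0 and 0 at 12h, followed by 0, 0 and 0.47 at 48h. The 0h libraries were all above those of 1h, which were all above the later ones. Its log2 change was -5.38 ± 0.69 at 12h (limma, adjusted p = 1.55e-04) and -5.21 ± 0.69 at 48h (adjusted p = 8.00e-05). Its share of all heavy V TPM was 22.1% ± 8.19 at 0h, against 0.673% ± 1.17 by 48h (SD, n = 3 each).

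Ighv1-64 (chr12:115507545-115508031) went the other way. It was at 0, 0.38 and 0 TPM at 0h, 0.47, 1.07 and 0.26 at 1h, then 0.82, 1.13 and 0.69 at 12h, followed by 5, 4.38 and 4.88 at 48h. The 48h libraries lay far above all others and differed little among themselves. The log2 change was 4.84 ± 0.58 at 48h (limma, adjusted p = 3.72e-05) and 2.51 ± 0.58 at 12h (adjusted p = 0.00719), and the rise from 12h to 48h was 2.33 ± 0.58 (adjusted p = 0.00879). At 1h the change of 1.88 ± 0.58 passed (adjusted p = 0.0359), but not with median-of-ratios scaling or without any one of 7 libraries (0h replicates 1 and 3, 1h replicates 1 and 2, 12h replicates 1 and 2, and 48h replicate 2). The call at 12h was lost with a pseudocount of 1 and with the 6 libraries of 0h and 12h alone. The call from 12h to 48h was lost with a pseudocount of 0.01 (2.45, limma, adjusted p = 0.127). Its share of heavy V TPM at 48h was 20.7% ± 5.02, the highest mean of any V segment, but its rank rests on 48h replicate 1. In replicates 2 and 3 Ighv1-70 had 20.2% and 22.1% against 15.6% and 20.96% for Ighv1-64, and Ighv1-55 had 18.1% in replicate 2.

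At 1h the largest share went to Ighv14-2, with 23.0% ± 1.68 of heavy V TPM. It had 0.60, 1.19 and 1.97 TPM at 0h, 6.09, 7.22 and 4.33 at 1h, then 0.33, 0 and 0 at 12h, followed by 0, 0 and 0.26 at 48h. All 1h libraries were above all others, so that this segment rose before it fell. The log2 change at 1h was 2.25 ± 0.66 (limma, adjusted p = 0.0298), and the call was lost under median-of-ratios scaling (1.60, adjusted p = 0.189) and without 0h replicate 1 or 2 or any one of the 1h replicates. At 48h the log2 change was -3.01 ± 0.66 (adjusted p = 0.00308).

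Ighv1-77 had a like peak at 1h without the later loss. Its TPM was 1.00, 0.76 and 0.32 at 0h, 2.79, 2.41 and 2.44 at 1h, then 0.43, 0.58 and 0.69 at 12h, followed by 0.39, 0.29 and 0.63 at 48h. The 1h libraries stood apart (log2 change 1.85 ± 0.37, limma, adjusted p = 0.00485), and the 12h and 48h libraries overlapped those of 0h. Ighv1-66 was called lower at 1h and 12h. It went from 5.10, 1.95 and 2.94 TPM at 0h to 0.95, 0 and 0.90 at 1h and 0, 0.38 and 0 at 12h, and was at 0.78, 1.79 and 0.43 at 48h. The log2 change was -2.76 ± 0.92 at 1h (limma, adjusted p = 0.0465) and -4.24 ± 0.92 at 12h (adjusted p = 0.00486), and at 48h it was -1.73 (adjusted p = 0.154). The 1h call was lost without any one of 10 of the 12 libraries, the exceptions being 1h replicate 3 and 12h replicate 2.

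Several segments present at 0h were listed at 0 in every library later, for which no fold change is given. Ighv14-1 had 1.82, 1.13 and 0.19 TPM at 0h and 1.84, 1.56 and 1.27 at 1h, and had no value above 0 in any library of 12h (limma, adjusted p = 0.00154) and 48h (adjusted p = 7.44e-04). Ighv14-4, with 1.82, 1.29 and 0.94 TPM at 0h and 0, 0.53 and 0.03 at 1h, was also listed at 0 at 12h and 48h (limma, adjusted p = 6.45e-04 and 2.91e-04). Ighv1-72, with 1.56, 1.58 and 0.53 TPM at 0h and 0, 0.56 and 0.27 at 1h, was listed at 0 at 12h and 48h (limma, adjusted p = 0.00133 and 6.38e-04). Of its 100-base stretches 42.8% occur also in 2 other genes, the highest share of any member. A group of zeros has no spread of its own, so that these p-values rest on the spread of the other times. Ighv14-4 and Ighv1-72 were members only through their 0h libraries, so that their p-values are also not free of the choice of segments. Ighv1-5 kept low values, with 2.35, 2.40 and 1.97 TPM at 0h, 2.36, 2.82 and 0.54 at 1h, then 0, 0.58 and 0.54 at 12h, followed by 0, 0.46 and 0.22 at 48h. Its log2 change was -2.73 ± 0.83 at 12h (limma, adjusted p = 0.0285) and -3.16 ± 0.83 at 48h (adjusted p = 0.00893). The 12h call was lost without any one of the 0h replicates or 12h replicate 1.

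Beside Ighv1-64, the segments that filled the heavy V sum at 48h were mostly ones already detected at 0h. Ighv1-55 had 7.32, 1.85 and 1.08 TPM at 0h and 4.10, 5.08 and 3.33 at 48h, and was between 0 and 2.25 in the libraries of 1h and 12h. Ighv1-70, annotated as a pseudogene, had 1.21, 2.32 and 0.59 TPM at 0h, 0, 0.49 and 0.42 at 1h, then 0.66, 0 and 2.95 at 12h, followed by 2.33, 5.67 and 5.14 at 48h. Ighv1-53 went from 0, 1.42 and 0.40 TPM at 0h to 1.92, 3.58 and 1.82 at 48h. The 48h libraries were above those of 0h for Ighv1-70 and Ighv1-53, but none of the 3 segments passed the test at 48h (limma, log2 change 0.71, 1.69 and 2.52, adjusted p = 0.643, 0.234 and 0.104). Ighv1-52 passed, with 0, 0 and 0.09 TPM at 0h, no value above 0 at 1h, then 0, 0 and 0.63 at 12h, followed by 2.28, 0.32 and 0.75 at 48h (log2 change 2.93 ± 0.80, limma, adjusted p = 0.0107). It was a member only through its 48h libraries, so that this p-value is not free of the choice of segments. The call was lost without 48h replicate 1, where the change was 2.27, and 29.4% of the 100-base stretches of Ighv1-52 occur also in Ighv1-61.

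**Figure D3:**
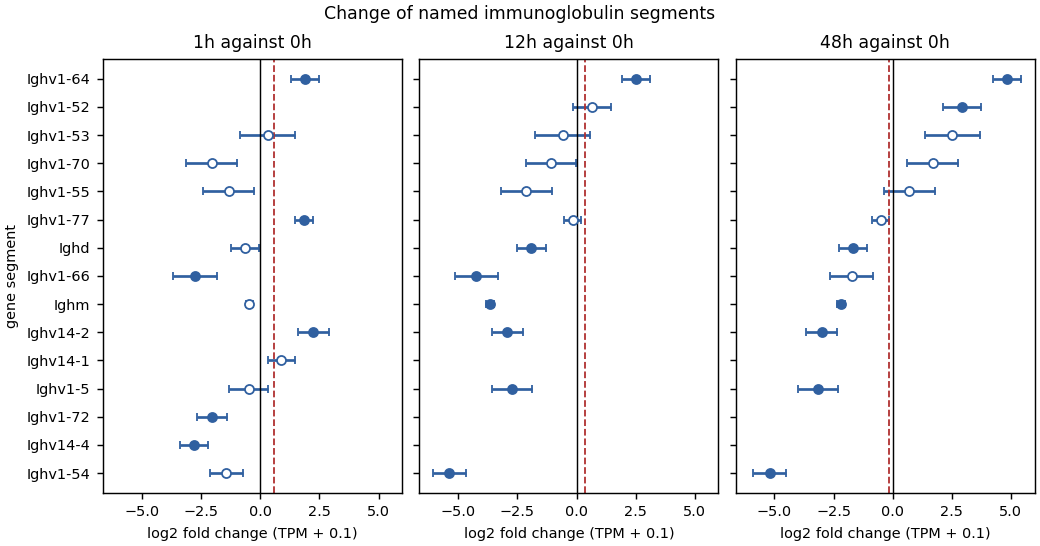
Log2 fold change of 15 named segments at 1h, 12h and 48h against 0h on the log2(TPM + 0.1) scale, with the SE as whiskers. Filled points were called (adjusted p under 0.05 and fold beyond 2), the dashed line is the median of all genes tested, and no point is drawn where either group was listed at 0 in all libraries; Ighv1-54 lies lowest and Ighv1-64 highest at 48h.

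Most of the heavy V TPM at 48h came from the part of the locus far from the J segments. The V stretch of the heavy locus runs from 143 to 2580 kb from Ighj1, the J segment next to it. It was split at its middle, 1361 kb, after the values were seen, and no member lies between 1182 and 1716 kb. The 108 rows nearer to the J segments, 10 of them members, held 35.1%, 32.7% and 33.0% of heavy V TPM at 0h, 53.8%, 58.7% and 48.9% at 1h, then 11.5%, 25.2% and 8.36% at 12h, followed by 0%, 2.88% and 4.90% at 48h. The 1h libraries were all above those of 0h, and those of 12h and 48h were all below them. In TPM, these rows went from 10.6 ± 2.87 at 0h to 13.9 ± 4.03 at 1h, then 0.920 ± 0.336 at 12h, followed by 0.650 ± 0.587 at 48h. The 77 rows farther away went from 20.8 ± 4.47 to 11.6 ± 1.67, 6.04 ± 3.24 and 23.0 ± 3.95 TPM (SD, n = 3 each). The share of a library's own V sum does not depend on scaling between libraries. Not every farther segment had RNA at 48h, since Ighv1-72 and Ighv8-6 were listed at 0 there. The farther members were all of the Ighv1 and Ighv8 families, and the members of the Ighv2, Ighv5, Ighv11 and Ighv14 families all lay nearer. The split therefore also divides families, and whether distance or family goes with these values was not tested. Because the split was chosen on these values, it carries no test.

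**Figure D4:**
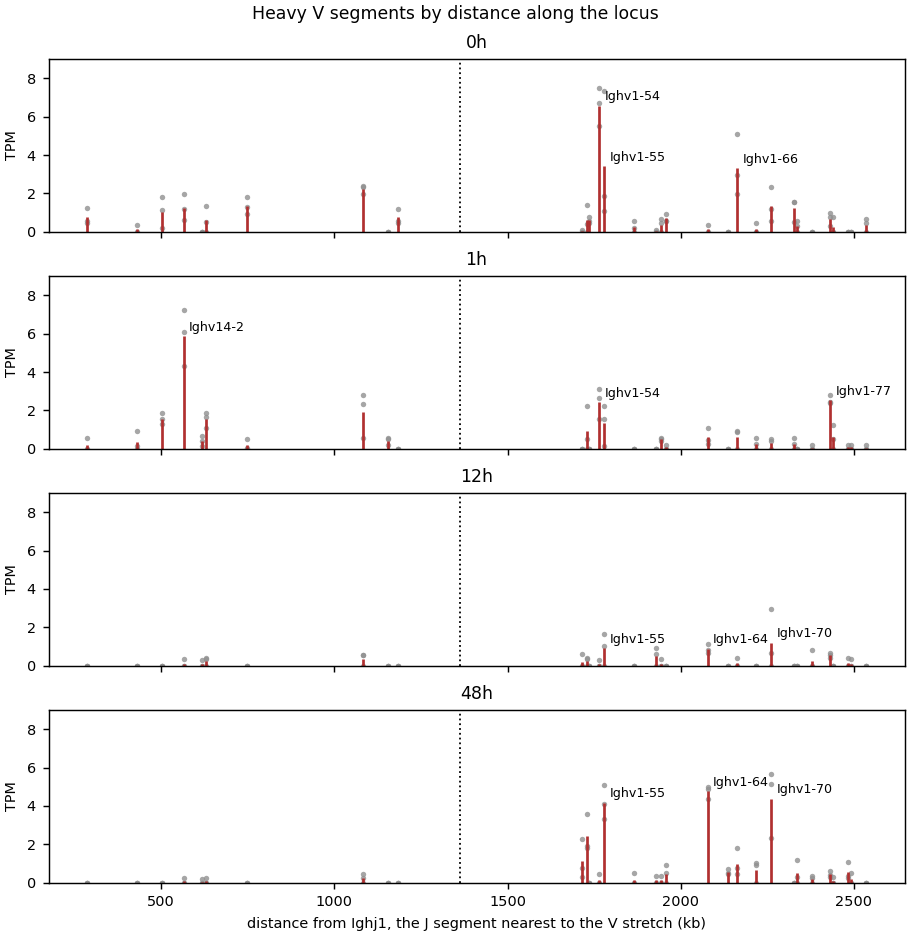
TPM of the 32 heavy V members against their distance from Ighj1 in kb, at each time. Grey points are the 3 libraries, red lines run from 0 to their mean, the dotted line marks the middle of the V stretch, and the 3 highest members are named; at 48h nearly all TPM lies to the right of the dotted line, and Ighv14-2 at 1h lies to its left.

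All 4 rows of the Ighv14 family are members, lying 502 to 747 kb from Ighj1 among segments of other families. At 12h and 48h Ighv14-1, Ighv14-2 and Ighv14-4 were all called lower. Ighv14-3, chosen after its values were seen, had 0, 1.33 and 0.53 TPM at 0h and 1.89, 1.66 and 1.08 at 1h and passed the test at no time, with a log2 change of -0.69 at 12h and -1.61 at 48h. At 1h Ighv14-4 was called lower (log2 change -2.80 ± 0.60, limma, adjusted p = 0.00689), where Ighv14-2 was called higher with the limits given above. The Ighv14-4 call was lost with a pseudocount of 1 (-0.997) and with the 6 libraries of 0h and 1h alone (adjusted p = 0.0543). This segment was a member only through its 0h libraries, as given above. Of the heavy V members, 4 are annotated as pseudogenes.

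Of the 41 members, 38 reached the mean of 0.1 TPM needed for the test, all but Ighv1-81, Igkv4-74 and Ighg2b. Called means an adjusted p under 0.05 in limma and a fold beyond 2. At 1h 5 were called higher, against 16.7% of all genes tested, and 7 lower, against 1.08%. With median-of-ratios scaling the split was 2 higher and 7 lower. At 12h 1 was called higher, against 17.7%, and 13 lower, against 5.75%. At 48h 8 were called higher, against 13.5%, and 11 lower, against 23.1%. In the added comparison of 48h with 12h 7 were called higher, against 3.55% of all genes, and 0 lower, against 23.8%; in limma 0 fell at an unadjusted p under 0.05 as well. The median log2 change of the 38 members was -0.31, -1.07 and -0.43 at the 3 times and 0.47 from 12h to 48h, beside 0.59, 0.34, -0.18 and -0.62 for all genes tested. These counts describe segments picked for having signal, and the 3 comparisons against 0h share the 0h libraries. In 6 of the 11 segments called lower and 5 of the 8 called higher at 48h, all libraries of the lower group were at 0. Igkv10-94, Ighv8-11 and Igkv12-66 became members through the 48h libraries alone and had to come out higher there. Ighv1-52, Ighv1-80 and Igkv10-96 also had fewer than 3 libraries above 0 outside 48h, so that the 48h values made them members. Of the 8 segments called higher than at 0h, Ighv1-64 and Igkv14-111 met the rule without the 48h libraries. Of the 7 called higher than at 12h, Ighm and Ighv1-64 did. In the same way Ighv1-11 and Ighv8-6, detected at 0h alone, are among the segments called lower at each time. Ighv2-6, Ighv14-4 and Ighv1-72, also called lower at each time, had fewer than 3 libraries above 0 outside 0h. Ighv1-9, detected at 1h alone, and Ighv11-2, with fewer than 3 libraries above 0 outside 1h, are among the 5 called higher at 1h.

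The counts at 1h and those of the weakest segments rested on few libraries. Without one library, the number called higher at 1h lay between 2 and 5 and fell to 2 or 3 without any one of the 0h replicates or 1h replicate 1 or 2. The number called higher at 12h was 2 without 12h replicate 1 or 2. The number called lower at 1h lay between 3 and 6 and fell to 3 or 4 without any one of these 5 libraries or 12h replicate 1.

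Kappa V segments were detected mainly at 48h. The summed TPM of the 160 rows was 0.58, 0.45 and 0.72 at 0h, 0, 1.41 and 0 at 1h, then 0.31, 0 and 1.17 at 12h, followed by 5.96, 6.84 and 3.48 at 48h. The 48h libraries were all above the rest. Between 8 and 12 rows were above 0 in the 48h libraries and between 0 and 4 in the others. Igkv14-111, chosen after its values were seen, had 0.46 TPM in 1h replicate 2, 0.31 and 0.79 in 12h replicates 1 and 3, and 1.31, 1.00 and 0.48 at 48h, and was listed at 0 at 0h (limma, adjusted p = 0.00681 at 48h). Igkv10-94 and Igkv12-66, chosen here after their values were seen, were detected at 48h alone, at 0.49, 1.08 and 0.26 TPM and at 0.63, 0.72 and 0.26 TPM. Igkv10-96, chosen in the same way, had 0.45 TPM in 0h replicate 2 and 1.34, 0.69 and 0.25 TPM at 48h (log2 change 2.06 ± 0.68, limma, adjusted p = 0.0293). It too was a member only through its 48h libraries, so that this p-value is not free of the choice of segments. All of these kappa V segments are under 1.4 TPM in every library. Between 12.3% and 12.9% of the 100-base stretches of Igkv10-96 and Igkv10-94 occur also in another gene.

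Low signal in silent genes was measured beside this result, in a family chosen after the values were seen. The 1407 olfactory receptor rows, genes of the nasal epithelium, summed to 36.8 to 42.3 TPM at 12h and 34.6 to 41.3 TPM at 48h, against 15.5 to 18.6 at 0h and 42.0 to 52.8 at 1h. On the TPM scale these sums overlapped between 12h and 48h. The factors of median-of-ratios scaling, by which TPM are divided, had means of 1.18 at 12h and 0.699 at 48h, so that this overlap depends on the scaling. Whether low background signal has a part in the kappa V values was not tested.

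The other classes gave no member. Igkc, the kappa constant region, was above 0 in 1 library (0.29 TPM, 1h replicate 2), and of the 12 lambda rows only Iglv3 was, in 1 library (0.19 TPM). No D or J segment of any locus was above 0 in any library. Their annotated transcripts are 10 to 54 bases long, shorter than the reads of 100 bases, and of 2395 genes of this table shorter than a read 37 (1.54%) were above 0 anywhere. Their values at 0 are therefore no measurement of whether these segments were transcribed.

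Genes that act on or with the immunoglobulin loci were mostly called lower by 12h. Of the list of such genes, 24 reached the test. At 1h 1 was called higher and 7 lower, at 12h 1 and 17, and at 48h 1 and 18, beside the shares of all genes given above. The median log2 change of the 24 was -0.60, -1.89 and -2.54. With median-of-ratios scaling, 14 were called lower at 1h.

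From 12h to 48h, when Ighm rose, 8 of the 24 genes were called lower, against 23.8% of all genes tested, and 0 higher, against 3.55%. The median log2 change of the 24 was -0.41, beside -0.62 for all genes tested. In limma 1, Pou2f2, was higher at an unadjusted p under 0.05. Igll1, Vpreb1, Vpreb3 and Cd79a were among the 8 called lower. The Pre-B marker Il7r, the interleukin 7 receptor, which is not one of these genes and was chosen after its values were seen, rose as Ighm did, from 0.03, 0 and 0 TPM to 0.74, 0.67 and 0.93 (log2 change 3.00 ± 0.40, limma, adjusted p = 1.79e-04). Pax5 went from a mean of 3.04 to 3.73 TPM and did not pass. Igll1, the lambda5 chain, had 61.23, 50.87 and 42.64 TPM at 0h, 7.38, 10.64 and 10.47 at 12h and 1.17, 0.96 and 1.16 at 48h. Its log2 change from 12h to 48h was -2.99 ± 0.20 (limma, adjusted p = 1.75e-06), where that of Ighm was 1.47. Vpreb1 changed by -2.31, Vpreb3 by -3.19 and Cd79a, a signalling chain of the receptor, by -1.66 over the same interval. Cd79b, its partner chain, fell first, from a mean of 34.4 TPM at 0h to 5.10 at 1h, and stood at 13.1 and 12.0 TPM later.

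Among recombination genes, Rag1 had 1.88, 1.68 and 1.5 TPM at 0h, between 0.04 and 0.07 at 1h, and at most 0.02 afterwards. Rag2 fell with it, from a mean of 2.04 to 0.1 TPM at 1h. Both encode the recombinase. Dntt, which adds bases at the joins, went from a mean of 0.463 at 0h and 0.420 at 1h to 0.0367 at 12h, and was listed at 0 at 48h.

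Of the factors that act through the octamer, Pou2f2 had 2.24, 2.04 and 1.45 TPM at 0h, 0.26, 0.15 and 0.29 at 1h, then 0.80, 0.45 and 0.84 at 12h, followed by 1.07, 1.00 and 1.49 at 48h. It was lowest at 1h (log2 change -2.60 ± 0.31, limma, adjusted p = 2.31e-04) and its change at 48h, -0.64, did not pass (adjusted p = 0.115). Pou2af1 had a mean of 28.9 TPM at 0h and 17.3, 8.10 and 2.47 TPM later and was called lower at 12h and 48h, and Pou2f1 was not called at any time. Spi1, which encodes PU.1 and acts in both B cells and macrophages, was the gene called higher at each time, from a mean of 7.81 TPM to 28.7, 36.3 and 28.4. Pax5, Ebf1 and Tcf3, which set up the B-cell program, were all called lower at 12h and 48h, and Irf4 and Yy1 at no time.

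Promoter capture Hi-C lists pairs of restriction fragments, of which at least one is a bait holding an annotated start, that were called as contacts. Each time has 1 list from merged replicates, so that these counts have no replicate error and no test. The heavy locus (chr12:113254830-116010093) had 27 listed contacts at 0h, 30 at 1h, then 16 at 12h, followed by 16 at 48h, among 138769, 137836, 131598 and 144072 contacts in all. This course depends on the edges set for the locus, since with 100 kb added on each side the counts were 74, 52, 52 and 63. The kappa locus (chr6:67555497-70726966) had 32, 33, 29 and 34, and the lambda locus had 3, 4, 0 and 3. Few members were touched by any listed fragment, 3 of 41 (7.32%), beside 23 of the 354 other rows of these loci (6.50%). In the heavy V stretch the only bait with listed contacts held the start of Ighv3-5, which is no member. The heavy V members were therefore listed, if at all, as the other end of a contact, and this count depends on which fragments were baits.

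In the heavy locus the bait that holds the start of Ighd (chr12:113414301-113418059) had the most contacts, with 13 at 0h, 14 at 1h, then 5 at 12h, followed by 9 at 48h. Its count was lowest at 12h, as was the TPM of Ighm next to this fragment. The baits of other constant regions had few contacts and were highest at 12h, with 1, 2, 4 and 2 for Ighe and 0, 0, 3 and 0 for Ighg2c. Among 4617 baits of the genome with at least 10 contacts at 0h, 15.5% kept 0.5 of that number or less at 12h and 18.8% at 48h, and the median bait kept 0.864 and 0.905. All 13 contacts of the Ighd bait at 0h ended on the constant region side, at distances of -192 to -84.7 kb (negative on that side). Of them 10 were listed at 1h, then 5 at 12h, followed by 8 at 48h. The 2 contacts of this bait on the V side, 236 and 357 kb away, were listed at 1h alone. Whether these counts have a part in the RNA levels was not tested.

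In the kappa locus the bait that holds the start of Igkv14-111 (chr6:68254191-68258952) had 17, 14, 17 and 25 contacts. It also holds the small RNA gene Gm25436, which had 0, 5.72 and 1.33 TPM at 48h and was at 0 in every other library. The count of this bait and the TPM of Igkv14-111 were both highest at 48h. Only 5 of the 43 fragments it touched at any time were listed at all 4 times. At 48h its 25 contacts lay inside the kappa locus, as they did at the other times. In contrast the bait with Gm10360 (chr6:70420780-70427363), near the J end of the locus, had 8, 8, 4 and 2 contacts.

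**Figure D5:**
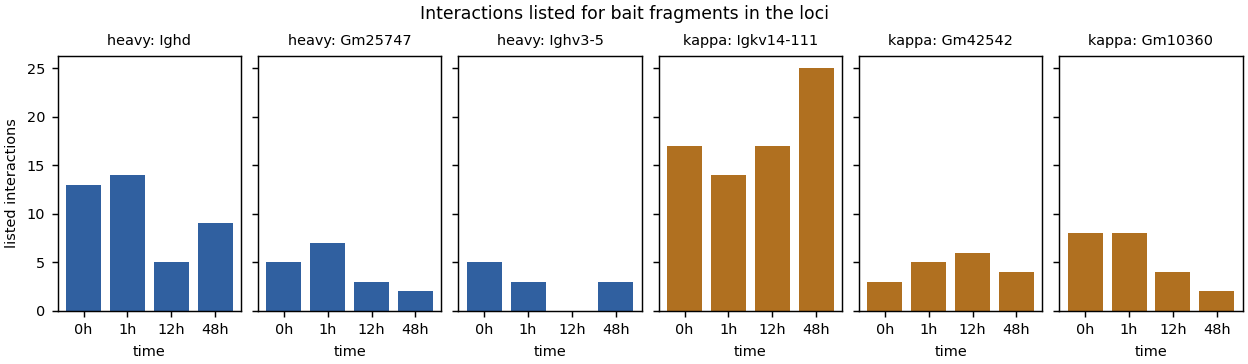
Number of contacts listed in promoter capture Hi-C for the 6 bait fragments of the heavy (blue) and kappa (brown) loci with at least 10 contacts over the 4 times, each named by the first gene start it holds. Bars are counts from 1 merged list per time and have no error; the Ighd bait is lowest at 12h and the Igkv14-111 bait highest at 48h.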

How the data were processed

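The authors merged technical replicates, trimmed single-end reads of 100 bases from rRNA-depleted RNA with Trim Galore (0.6.2), mapped them to mm10 with HISAT2 (2.1.0) and obtained the TPM values with RSEM (version not given in the sources used here). The deposited TPM sum to 1000000 in each library, and depth cannot be read from them, so no counting interval is given. The smallest value above 0 of a V row was between 0.03 and 0.43 TPM by library. All 55450 rows were matched to GENCODE M21 by gene identifier. The deposited promoter capture lists hold a CHiCAGO score at 0h (5 or more) and, at the other times, whole numbers whose unit is not given in the sources used here. Those values were not used, and each pair of fragments was counted once.

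Groups came from the sample labels. TPM were tested as log2(TPM + 0.1) for genes with a mean of at least 0.1 TPM over the 12 libraries, with limma (3.58.1, R 4.3.3), an eBayes trend and 1 model of all libraries, since counts were not used here. A fold change on this scale understates the change of low genes. The script was checked on simulated data. The members and lists were chosen with earlier results of these data known. Segments were named by rule: constant regions, the 10 highest by mean TPM, and per comparison the 5 largest called increases and decreases with a mean of at least 0.5 TPM over the 6 libraries compared. Others are marked as chosen after their values were seen. The methods call the replicates biological. They come from 1 line, so p-values measure the spread between these libraries. Whether counting used strand is not given in the sources used here, and Ighv1-62-1 overlaps the antisense gene Gm19331 and Ighv1-5 the miRNA gene Mir7094-2, whose reads cannot be told apart. Sequences were read from GRCm38.p6 (RefSeq), in which all 497 annotated transcripts of these rows matched exactly. Alternatives to each choice are given in the closing section.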

Additional observations from a re-analysis of the deposited data

How the results depend on the processing

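With a pseudocount of 1, 2 members were called higher at 1h, 0 at 12h and 2 at 48h, while 2, 6 and 7 were called lower. With a pseudocount of 0.01, 3 were called lower at 1h. With no filter on level, 3 were called higher and 3 lower at 1h. With a mean TPM of at least 1, which leaves fewer members to test, 3 members were called higher at 1h and 1 at 48h, while 1, 5 and 4 were called lower at the 3 times. Median-of-ratios scaling, rescaling without the 20 most abundant genes and quantile normalization each left 2 members called higher at 1h, and called 14, 13 and 13 partner genes lower at 1h. With only the 2 time points compared, 4 members were called lower at 1h and 0 higher at 12h. A log2 fold change beyond 2 left 3 members called higher at 1h, no partner gene called higher at 1h or 48h and 11 called lower at 12h, while no fold threshold gave 2 partner genes higher and 11 lower at 1h. Without any one library the members called higher at 1h were 2 to 5, those called lower at 1h 3 to 6, and those called higher at 12h 1 to 2.

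The summed TPM of heavy V members relative to 0h was 0.811 at 1h and 0.512 with median-of-ratios scaling. At 48h it was 0.789, and 1.06 with median-of-ratios scaling or 1.01 rescaled without the 20 most abundant genes. The sum of the constant regions at the 3 times was 0.720, 0.0795 and 0.218, and 0.457, 0.0631 and 0.289 with median-of-ratios scaling, or 0.513 at 1h and 0.276 at 48h rescaled without the 20 most abundant genes. With 100 kb added on each side, the heavy locus had 74, 52, 52 and 63 contacts at 0h, 1h, 12h and 48h, and the lambda locus 8 at 1h and 1 at 12h. With a score of at least 10 at 0h, 9 contacts remained at the heavy, 4 at the kappa and 0 at the lambda locus.

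Same-numbered libraries of different times did not deviate together in all pairs (correlations -0.01 to 0.26 over 18 pairs, 7 of them over 0.1), so that the numbers were not taken to pair the samples. The replicate 3 libraries did deviate together, with 5 of their 6 pairs over 0.1 (0.07 to 0.26) and negative correlations with every replicate 1 and 2 library of the other times (down to -0.18). With the replicate block, 5, 1 and 8 members were called higher at the 3 times and 6, 12 and 10 lower, and the calls of Ighd (adjusted p = 0.0515 at 12h and 0.0637 at 48h, limma) and of Ighv1-66 at 1h were lost. No called change of a named segment and no change of Ighm reversed its direction under any alternative run. Changes that were not called could reverse, as that of Ighv1-53 at 1h did, from 0.305 to -0.114 with median-of-ratios scaling. TPM without counts and values under about 1 TPM limit every segment but Ighm.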
